A study of Camponotus floridanus with 24 samples.

Results

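Small RNA libraries made from whole bodies of middle-sized terminal larvae were compared with those of the smallest ones in Camponotus floridanus, the Florida carpenter ant. Of the 24 single female larvae sequenced, 16 entered the comparison, chosen on the body length in the labels alone. The 8 middle-sized larvae measured 5690.32 to 6689.42 µm and the 8 smallest 4648.07 to 5502.35 µm. The 8 largest larvae, 6797.79 to 7598.06 µm long, served only for context. Terminal larvae are in their final instar and pupate next. The labels name no treatment, genotype, age or colony for any larva, so length is the stated difference between the classes. The wider study covers 48 larvae and concerns molecular contributors to worker size. The shortest middle-sized larva (larva 27, 5690.32 µm) and the longest of the smallest (larva 64, 5502.35 µm) stand closest to the class boundary. At the upper end the longest middle-sized larva was 6689.42 µm and the shortest of the largest 6797.79 µm.

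MicroRNAs are short RNAs cut from hairpin precursors. Either arm of a hairpin can give a mature RNA, which guides an Argonaute protein to messenger RNAs that pair with its seed and lowers their translation or stability. Workers of this ant range from small minors to large majors, and their final size is reached through larval growth. In Drosophila, some miRNAs such as bantam are known regulators of tissue growth. The deposited names hold a scaffold and a running number, and of 459 hairpin names 0 could be found in RefSeq's table of this ant's genes. No miRNA family, arm or sequence could therefore be given to a name. The tables list every hairpin in a pair of blocks, taken here as its first-listed and second-listed mature forms. Forms are called here by their rank in mean level over the 16 larvae, with rank 1 the most abundant. Levels are in CPM, counts per 1000000 reads after TMM scaling.

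The libraries held 881734 to 6128791 counted reads, with 488 to 656 forms detected. They fell into a high and a low library set, which the labels do not give. The sets were defined by the deposited RPM of the first-listed form of hairpin NW_020229223.1_2442, high above 1000 RPM. In the 7 high-set libraries this form stood at 2737 to 20615 RPM, and in the 9 low-set libraries at 103 to 185 RPM. The high set held 5 middle-sized and 2 of the smallest larvae, and the low set 3 middle-sized and 6 of the smallest. The library set was therefore a covariate in the main test. The sets also differed in depth, and in the high set the 5 middle-sized larvae had 881734 to 1560682 reads against 1792033 and 2114243 in the 2 smallest. The set-defining form did not overlap between the classes in the high set either, at 6700 to 20615 RPM in the middle-sized larvae and 2737 and 3818 RPM in the smallest. Within the high set, class, depth and the level of that form cannot be told apart.

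**Figure D1:**
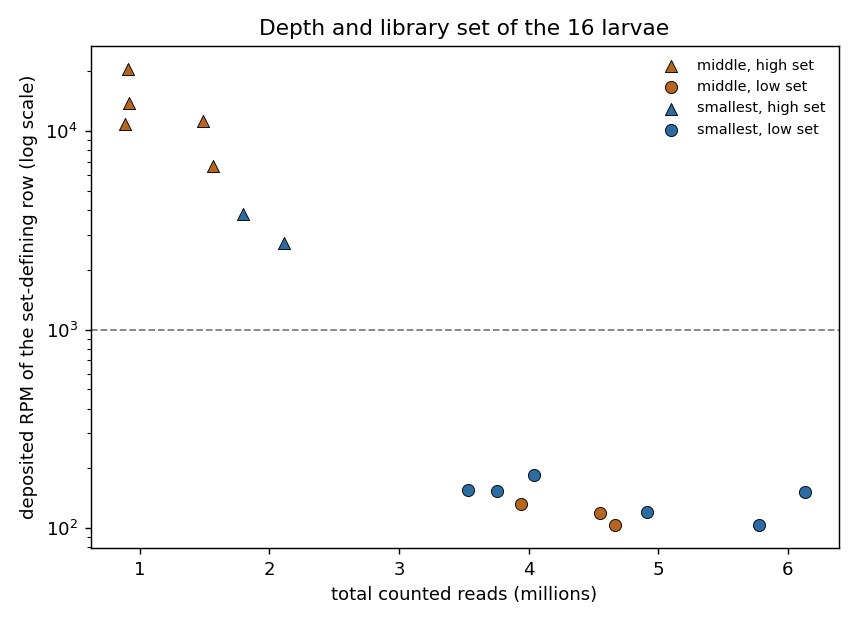
Total counted reads (x axis, in units of 1000000) against the deposited RPM of the set-defining form (y axis, log scale) for the 8 middle-sized and 8 smallest larvae, with triangles for the high set, circles for the low set and the 1000 RPM line dashed. The 5 middle-sized larvae of the high set have fewer reads and more of that form than the 2 smallest larvae of the high set, at 6700 to 20615 against 2737 and 3818 RPM.

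The first question was which miRNAs differed in abundance between the classes. A small group did: 5 forms were higher and 4 lower in middle-sized than in smallest larvae, by 1.71- to 2.28-fold upward and to 0.540 to 0.720 of the level in the smallest downward. The largest fold was that of the second-listed form of hairpin NW_020229838.1_37076, whose first-listed form was also higher. None of the 50 most abundant forms was among the 9, which ranked between 74 and 243. With 9 of 333 forms passing, 0 of 50 does not set the abundant forms apart. The main test takes 1 class difference for both library sets, and for most forms it limits the size of that difference. Of 333 forms, 266 (79.9%) had a 95% interval of the difference lying within 2-fold in both directions, and 132 (39.6%) within 1.5-fold. These intervals do not limit a difference within a single set.

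The 9 forms made up 2.70% of the 333 tested (edgeR quasi-likelihood F test with the library set as covariate, Benjamini-Hochberg adjusted p under 0.05), with 1.50% higher and 1.20% lower. They came from 8 hairpins on 8 scaffolds and had 8 distinct count profiles, since a pair of hairpins had identical counts in every library. Before adjustment, 52 forms had p under 0.05, 22 higher and 30 lower, where 16.65 would pass by chance if none differed. The median difference over all tested forms was -0.065 on the log2 scale, with quartiles of -0.26 and 0.13, and the median SE was 0.21. Without larva 9 (smallest) or larva 46 (middle-sized) 0 forms passed, with smallest adjusted p of 0.0892 and 0.0861 and 35 and 38 forms at an unadjusted p under 0.05. Without larva 32 or larva 36, both middle-sized, 5 were higher and 1 lower, and without larva 31 or larva 38, also middle-sized, 5 were higher and 2 lower. With log10 total reads added to the library set, edgeR passed 0 forms, with 55 at an unadjusted p under 0.05, and DESeq2 passed 7. The 9 forms then had adjusted p of 0.0730 to 0.168 by edgeR and kept their sign, and their log2 differences included 0.86 in rank 74 (SE 0.22), 0.72 in rank 243 (SE 0.18), -0.49 in rank 81 (SE 0.12) and -0.52 in rank 178 (SE 0.15).

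**Figure D2:**
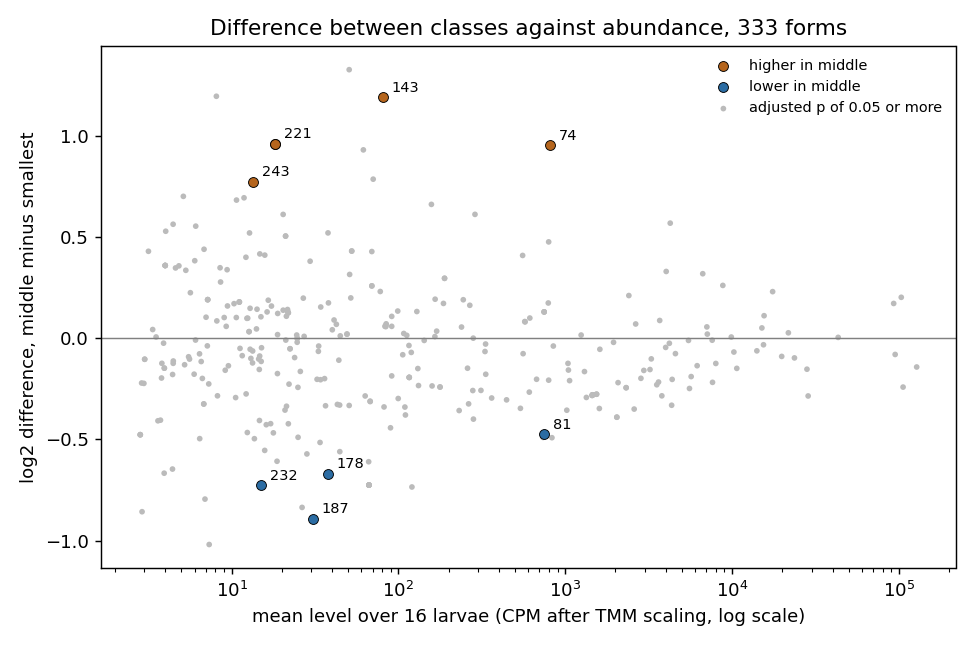
Log2 difference of middle-sized minus smallest larvae (y axis) against the mean level over the 16 larvae (x axis, CPM after TMM scaling, log scale) for the 333 tested forms, with those past an adjusted p of 0.05 coloured and marked by their rank. The coloured forms lie at mid to low abundance, with differences of 0.77 to 1.19 above 0 and -0.47 to -0.89 below it.

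Among the forms that were higher, the first-listed form of NW_020229838.1_37076, rank 74, had a lowest, median and highest level of 675, 1155 and 1460.4 CPM in the middle-sized larvae, against 309.6, 531 and 669 CPM in the smallest. Every middle-sized larva lay above every smallest one, although the lowest middle-sized larva (larva 19) was only just above the highest of the smallest (larva 2). The middle-sized larvae were themselves uneven, with larvae 17, 19 and 27 at 675 to 835 CPM and the other 5 at 1093 to 1460.4 CPM. The difference was 0.95 on the log2 scale (SE 0.20, adjusted p = 0.0137, edgeR), which is 1.94-fold, from at least 980 reads in each library.

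Its second-listed partner, rank 143, stood at 43.7, 116 and 216 CPM as lowest, median and highest in the middle-sized larvae, against 16.1, 40.4 and 59.4 CPM in the smallest. Its ranges overlapped, with larvae 19 and 27 of the middle class inside the range of the smallest. The difference was 1.19 (SE 0.26, adjusted p = 0.0137, edgeR), or 2.28-fold. This was the only one of the 9 forms that also differed between the library sets at matched class, where it was higher in the high set by 0.96 on the log2 scale (adjusted p = 0.0292, edgeR). Over all forms 37 (11.1%) differed between the sets in that fit. The set-defining form was among the forms tested, and its own difference between the sets was fixed by how they were defined.

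The first-listed form of NW_020229300.1_12464, rank 221, had levels of 11.5, 24.1 and 41.9 CPM in the middle-sized larvae and 8.95, 11.2 and 14.9 CPM in the smallest. A hairpin on another scaffold had identical counts in all libraries, so these reads cannot be assigned to a single locus. Of the middle-sized larvae only larva 19 fell within the range of the smallest. The difference was 0.96 (SE 0.21, adjusted p = 0.0137, edgeR), on 23 to 106 reads per library.

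A scarcer first-listed form, rank 243, had 12.7, 16.7 and 24.1 CPM in the middle-sized larvae, against 7.93, 9.83 and 11.0 CPM in the smallest. The classes did not overlap, and the smallest larvae were close to each other, with a coefficient of variation of 11.0% against 23.6% in the middle-sized. Its difference was 0.77 (SE 0.17, adjusted p = 0.0137, edgeR), from 16 to 69 reads per library.

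**Figure D3:**
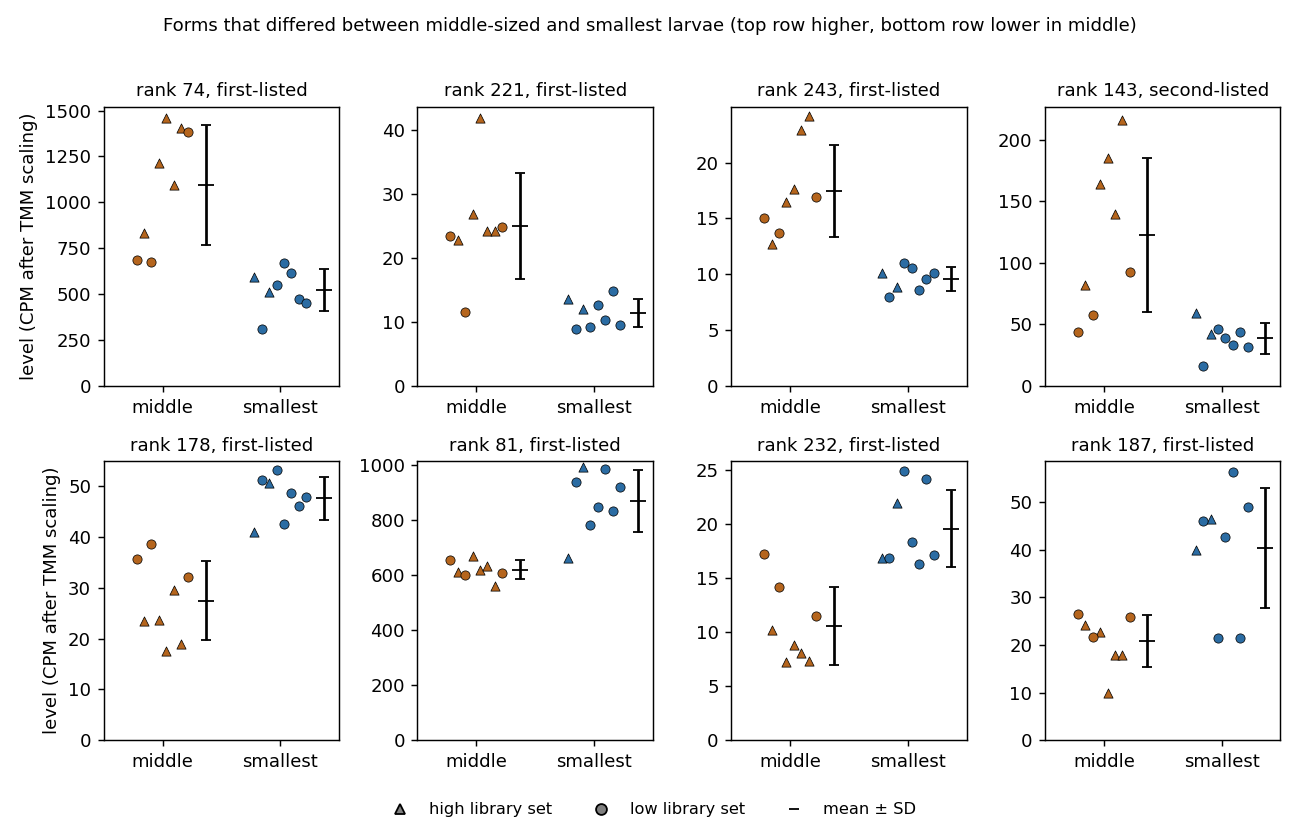
Level in CPM after TMM scaling (y axis, from 0) of the 8 distinct profiles that differed, with 1 point per larva in order of length within its class, the 8 middle-sized larvae left and the 8 smallest right, triangles for the high set, circles for the low set and bars for the mean ± SD. The upper row holds the forms higher in middle-sized larvae and the lower row those lower, and in ranks 74, 243 and 178 the classes do not overlap on this scale, though rank 178 does with no scaling factor.

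Among the forms that were lower, the first-listed form of NW_020229425.1_23373, rank 178, had a lowest, median and highest level of 17.6, 26.7 and 38.7 CPM in the middle-sized larvae, against 41.0, 48.4 and 53.2 CPM in the smallest. Here every middle-sized larva lay below every smallest one. The difference was -0.67 (SE 0.15, adjusted p = 0.0137, edgeR), or 0.629 of the level in the smallest. It failed to pass in 5 of the 16 fits with single larvae left out, without larvae 9 or 15 of the smallest or larvae 32, 36 or 46 of the middle class. Across the 333 forms such a complete separation in either direction occurred in 3 (0.901%), above in ranks 74 and 243 (0.601%) and below in rank 178 (0.300%). With no scaling factor ranks 74 and 243 stayed separate, while rank 178 overlapped slightly, at 17.5 to 40.8 RPM in middle-sized and 40.2 to 54.1 RPM in smallest larvae.

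The first-listed form of NW_020229436.1_23921, rank 81, had 558, 616 and 669 CPM in the middle-sized larvae and 662, 884 and 991 CPM in the smallest. Its coefficient of variation was 5.50% in the middle-sized larvae and 12.9% in the smallest. The classes overlapped only through larva 36 of the middle class and larva 15 of the smallest, the shortest of the 16. The difference was -0.47 (SE 0.11, adjusted p = 0.0161, edgeR), or 0.720 of the level in the smallest, on at least 532 reads in each library. It failed to pass in 2 of 16 fits with single larvae left out. With other filters, scaling, covariates, tools or sets of larvae it passed in 6 of 13 settings.

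A pair of scarcer first-listed forms was also lower. Rank 232 had 7.21, 9.48 and 17.2 CPM in the middle-sized larvae against 16.3, 17.7 and 24.9 CPM in the smallest, a difference of -0.73 (SE 0.18, adjusted p = 0.0342, edgeR). Rank 187 had 9.91, 22.1 and 26.5 CPM in the middle-sized larvae against 21.5, 44.3 and 56.3 CPM in the smallest, a difference of -0.89 (SE 0.23, adjusted p = 0.0429, edgeR). In rank 232 only larva 27 of the middle class reached the range of the smallest, and in rank 187 5 of the 8 middle-sized larvae did, while larvae 51 and 62 of the smallest stood at the level of the middle class. The fewest reads behind them were 7 and 9, in middle-sized larvae. With single larvae left out, rank 232 failed to pass in 9 of 16 fits and rank 187 in 13. The larvae were extracted whole, so a smaller share of cells that make a miRNA and less of it per cell cannot be told apart.

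The difference was then set out within each library set, since the classes were uneven over the sets. All 9 forms had the same sign in both sets. In rank 74 the log2 difference was 1.13 in the high set (SE 0.23) and 0.93 in the low set (SE 0.27). In rank 81 it was -0.40 in the high set (SE 0.19) and -0.44 in the low set (SE 0.14). In rank 243 it was 0.98 in the high set (SE 0.36) and 0.73 in the low set (SE 0.19). In rank 178 it was -0.99 (SE 0.28) in the high set and -0.38 (SE 0.17) in the low set. The 9 forms were called on these same larvae, so the match in sign is no independent support. Fitted alone, the high set passed 31 forms (9.31%), 7 of the 9 among them. The low set, with 3 middle-sized larvae against 6 smallest, passed 0 by edgeR, with 39 at an unadjusted p under 0.05, and 0 by DESeq2. In the low set the 9 forms had unadjusted p of 0.00205 to 0.115 and 6 of them were under 0.05. Over all 333 forms the 2 sets had the same sign in 165 (49.5%).

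**Figure D4:**
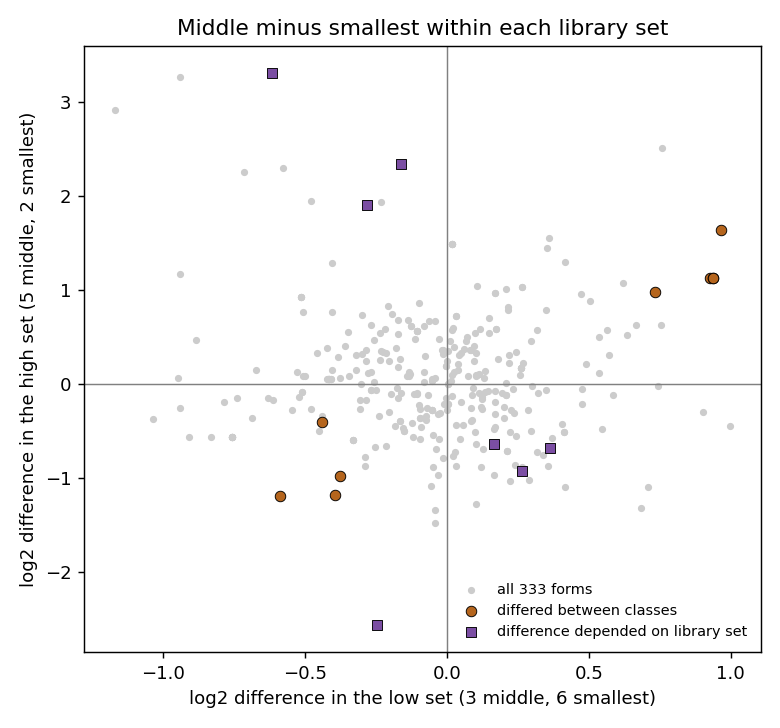
Log2 difference of middle-sized minus smallest larvae in the high set (y axis) against that in the low set (x axis) for 333 forms, with circles for the 9 forms that differed between the classes and squares for 7 forms whose difference depended on the set. The circles lie in the upper right and lower left, with the same sign in both sets, and the squares include 6 with opposite signs. Both kinds of form were picked by tests on these same larvae, which favours these signs.

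A test of the interaction of class with library set asked directly whether the class difference depended on the set. By edgeR 8 of 333 forms (2.40%) passed, 4 in each direction, and 1 of them was the set-defining form itself. None of the 9 forms above was among them, and their smallest adjusted p for the interaction was 0.241. It belonged to rank 232 (unadjusted p = 0.0449, edgeR), at -1.19 in the high set (SE 0.32) and -0.40 in the low set (SE 0.23). With 2 smallest larvae in the high set, not passing does not show that a difference was alike in both sets. Without larva 15 of the smallest class 0 passed and without larva 9, also of the smallest, 17 passed. A single larva of the smallest class then remained in the high set.

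None of the 10 most abundant forms passed with both library sets fitted together. The most abundant form had 115159 ± 35457 CPM in the middle-sized larvae and 140456 ± 16414 CPM in the smallest (SD, n = 8 each), a log2 difference of -0.14 with a 95% interval of -0.37 to 0.086. The second had 95552 ± 15339 CPM in middle-sized and 116310.0 ± 29260.0 CPM in smallest larvae, with an interval of -0.55 to 0.071. The third, at 116010.0 ± 25595 CPM in middle-sized and 90605 ± 14535 CPM in smallest larvae, had an interval of -0.076 to 0.48. Over the 10 most abundant forms the smallest adjusted p was 0.314 (edgeR), for rank 5, whose interval was -0.014 to 0.36. In the high set alone, rank 3 passed with a log2 difference of 0.59 (SE 0.13, adjusted p = 0.0187, edgeR), against 0.021 (SE 0.16) in the low set. Rank 7 passed in the high set alone with -0.93 (SE 0.18, adjusted p = 0.0124, edgeR), against 0.27 (SE 0.22) in the low set. Among these 10, rank 8 had the narrowest interval, at -0.32 to 0.017, and rank 10 the widest, at -0.38 to 0.43. Of the 9 forms that passed, 2 ranked between 51 and 100, 3 after rank 100 but within 200, and 4 beyond rank 200.

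Measures of the whole library were compared with two-sided exact permutation tests, adjusted over 4 measures. Total reads averaged 2364214 ± 1708282 in middle-sized larvae and 4006826 ± 1569190 in smallest larvae (SD, n = 8 each, exact p = 0.0656, adjusted p = 0.109). The number of forms detected averaged 551 ± 55.9 in middle-sized and 613 ± 47.4 in smallest larvae (exact p = 0.0351, adjusted p = 0.109). Shannon diversity was 4.89 ± 0.113 bits in middle-sized and 4.89 ± 0.109 bits in smallest larvae (exact p = 0.866). The share of reads in the top form was 11.6% ± 2.99 in middle-sized larvae and 13.8% ± 1.30 in smallest larvae (exact p = 0.0814, adjusted p = 0.109). In the low set this share was 15.0% in middle-sized and 14.1% in smallest larvae, and in the high set 9.54% in middle-sized and 12.9% in smallest larvae. Within either set the exact p was 0.0952 or more for all 4 measures, and in the high set, with 5 larvae against 2, this is the smallest p the two-sided test allows.

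The mature forms of a hairpin were then compared with each other. Of 100 hairpins with both forms tested, 74 (74.0%) had the same sign of difference in both. These forms were counted in the same libraries, so their match is no separate support. Among the 8 hairpins with a form that differed, 4 had both forms tested, and in each of these both forms had the same sign. Both passed in NW_020229838.1_37076 alone. The second-listed form of NW_020229425.1_23373 had a difference of -0.84 (SE 0.27, adjusted p = 0.119, edgeR). That of NW_020229436.1_23921 had a difference of -0.61, with an unadjusted p of 0.0438. The ratio of first-listed to second-listed form was tested with limma, to ask whether the use of the forms differed between classes. Of 100 hairpins 0 passed (0.00%), 6 had an unadjusted p under 0.05, and the smallest adjusted p was 0.591. The 6 include a pair with identical counts, so they are not all separate. No other tool was run on the ratio. For NW_020229838.1_37076 the mean log2 ratio, not adjusted for set, was 3.29 in middle-sized and 3.79 in smallest larvae. The tested difference, with the library set as covariate, was -0.26 (SE 0.17, adjusted p = 0.830, limma).

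The last question was whether the forms that differed between smallest and middle-sized larvae went on changing in the largest. Of the largest class only larvae 3 and 49 were in the high library set, and the class means given here are not adjusted for set. With all 24 larvae scaled together, rank 74 averaged 514 ± 108 CPM in the smallest, 1112 ± 342 in the middle-sized and 1136 ± 161 in the largest class (SD, n = 8 each). Its level in the largest larvae, 907 to 1380 CPM, lay inside the range of the middle-sized. Rank 221 averaged 11.3 ± 2.50, 25.4 ± 8.96 and 27.6 ± 9.60 CPM over the same classes. Rank 178 averaged 47.1 ± 5.45, 27.9 ± 8.01 and 25.9 ± 4.42 CPM. In contrast rank 81 averaged 855 ± 97.2, 628 ± 49.4 and 495 ± 57.5 CPM, with the largest class lowest, although its difference of -0.35 (SE 0.096) from the middle-sized larvae did not pass (adjusted p = 0.127, edgeR).

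In the fit of 24 larvae, the 9 forms had log2 differences of largest minus middle-sized of 0.35 or less in size, with adjusted p of 0.127 or more (edgeR). Over all forms 0 of 333 (0.00%) passed between the largest and the middle-sized class by edgeR, 36 had an unadjusted p under 0.05, and DESeq2 passed 2. This comparison shares the middle-sized larvae with the main one. The step difference, which is 2 times the middle class minus both end classes, tested whether the change between smallest and middle-sized larvae exceeded that between middle-sized and largest. By edgeR 0 of 333 forms passed (0.00%), with 24 at an unadjusted p under 0.05, and DESeq2 gave 0 with 24. In rank 74 the step difference was 0.88 (SE 0.30, unadjusted p = 0.00725, adjusted p = 0.402, edgeR). All 5 higher forms had a positive and all 4 lower forms a negative step difference, a sign that the choice of forms on the same middle-sized and smallest larvae favours. Their smallest adjusted p was 0.402, so a larger early step was not detectable for any of them.

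**Figure D5:**
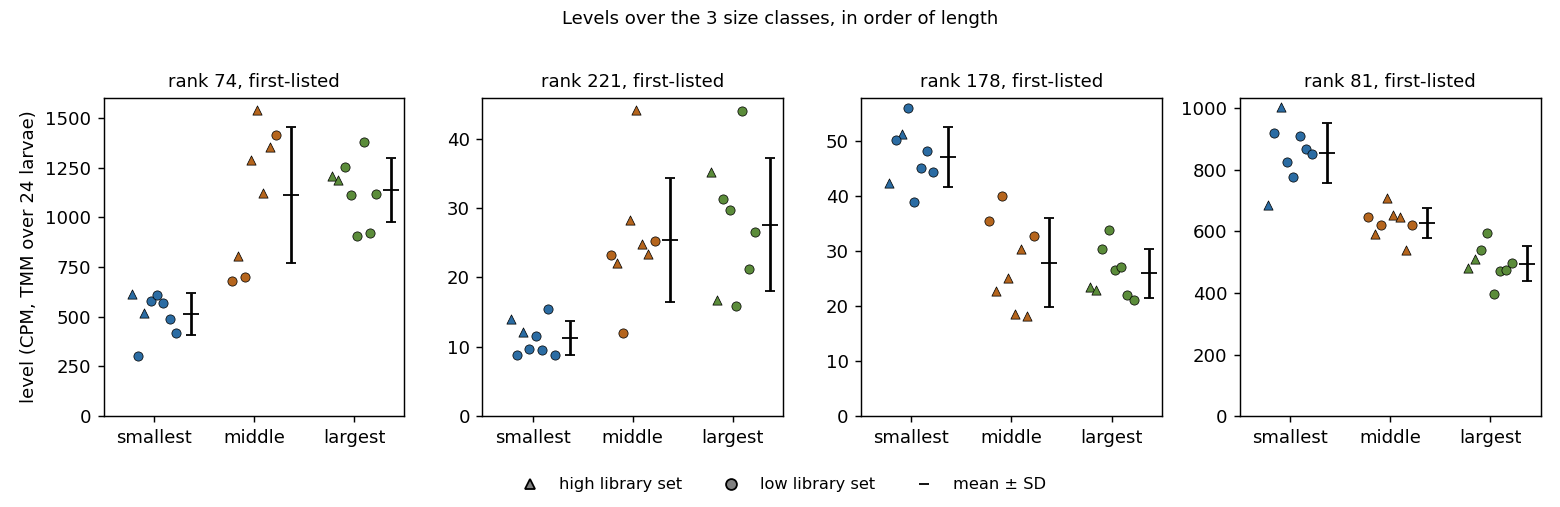
Level in CPM with TMM scaling over all 24 larvae (y axis, from 0) of 2 forms that were higher and 2 that were lower in middle-sized than in smallest larvae, for the smallest, middle-sized and largest classes in order of length (1 point per larva, triangles for the high set, circles for the low set, bars for the mean ± SD, n = 8 each). In rank 74 the largest larvae, at 907 to 1380 CPM, lie within the range of the middle-sized, while in rank 81 the class means are 855, 628 and 495 CPM.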

How the data were processed

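Small RNA was sequenced from single larvae, with 1 library each. The tools named are Trim Galore 0.6.7 and bcl2fastq 2.20, per the submitters' processing notes. The aligner, miRNA caller, counter and genome build were not given in the sources used here. The deposited raw read count of each form was used for every test. The authors' deposited RPM equals the count over the library total per 1000000 reads, within 0.005, and served only to define the library sets. The first block of each table writes counts with a decimal point and the second as integers, and they were kept as first-listed and second-listed forms. A name repeated within a block was taken at its maximum, which left 918 forms of 459 hairpins.

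A form was tested if 8 or more of the 16 libraries held 10 or more of its reads. This left 233 first-listed forms and 100 second-listed ones, which hold 99.97% of all reads. Of these, 57 in 23 groups shared identical counts over all libraries. edgeR 4.0.16 in R 4.3.3 (TMM, robust quasi-likelihood F test) fitted class with the library set as covariate. limma 3.58.1 tested the form ratio with a pseudocount of 0.5, and DESeq2 1.42.0 was an alternative. Intervals are 95%, from the fitted SE. The tests were tried on simulated data. For the main test these held no difference between library sets, so they could not check how well class and set are separated.

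The classes rest on labelled length alone, but they, the library sets and the named forms were chosen with earlier results of these data known. Named forms were those that passed, 1 per count profile, and the 10 most abundant, with identifiers for the first 2 in each direction. No miRNA lists were tested. The sources mention no molecular identifiers, and PCR copies may therefore be counted more than once. The closest of 120 library pairs differed by a chi-square of 32.6 per degree of freedom. The labels do not state separate colonies, so p-values measure the spread between these larvae. No column of per-sample values was left out.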

Additional observations from a re-analysis of the deposited data

Results flagged for a closer look

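In 7 forms besides the set-defining one, the class difference differed between the library sets by edgeR's interaction test, with 5 middle-sized and 2 smallest larvae in the high set. In the high set, depth and the level of the set-defining form also separated the classes, and their part in these results was not tested.

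The largest such difference, high minus low set, was 3.99 on the log2 scale in rank 164 (SE 0.77, adjusted p = 0.00774). Its mean was 153 CPM in middle-sized larvae of the high set, against 13.5 and 17.2 CPM in the 2 smallest there, and 1.10 CPM in middle-sized against 1.79 CPM in smallest larvae of the low set. Low-set levels were 0.715 to 2.84 CPM, only a few reads in most libraries, so this form met the filter mainly through the high set. Rank 145 differed by 2.56 (SE 0.43, adjusted p = 0.00328), with a mean of 188 CPM in middle-sized larvae of the high set against 25.6 and 49.1 CPM in the smallest. The second-listed forms of ranks 235 and 278 differed by 2.26 (adjusted p = 0.0272) and -2.29 (adjusted p = 0.0272). In the high set, rank 235 stood at 16.5 to 30.4 CPM in middle-sized larvae, against 3.38 and 9.40 CPM in the smallest. Rank 278 stood there at only 1.03 to 4.41 CPM in middle-sized larvae, against 12.5 and 15.9 CPM in the smallest. Those middle-sized levels rest on a few reads per library, so the size of its difference is poorly measured. Of the abundant forms, rank 7 differed by -1.14 (SE 0.28, adjusted p = 0.0324), rank 21 by -1.002 (SE 0.22, adjusted p = 0.0152) and rank 22 by -0.76 (SE 0.19, adjusted p = 0.0324), all by edgeR. Rank 7 averaged 17111 CPM in middle-sized larvae of the high set, against 23507 and 42141 CPM in the 2 smallest, and 37204 CPM in middle-sized against 32399 CPM in smallest larvae of the low set.

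Larva 32 of the middle class stood apart in rank 6, at 60159 CPM against 37527 to 48204 CPM in the other 7. This was the single case among 44 sets of 8 values, from 18 named forms and 4 library measures in each class, where chance alone gives about 1 in 20.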

How the results depend on the processing

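All 9 forms kept their sign wherever they were tested, but the counts past the threshold moved. Against 5 higher and 4 lower, there were 13 and 5 with no library set covariate, 0 and 0 with the set and log10 total reads, 6 and 2 with RLE size factors, 5 and 1 with no scaling factor, 9 and 3 by DESeq2, and 5 and 2 by limma-voom. There were 5 and 0 with no filter on low counts (795 forms) and 3 and 0 with a minimum of 50 reads (228 forms). With that minimum, 6 of the 9 forms were tested and 2 of them passed. There were 12 and 4 with all 24 larvae, and 2 and 2 without larvae 27 and 64, which lie nearest the boundary. The low set alone gave 0 and 0 and the high set alone 15 and 16. The maximum over a hairpin's rows gave 5 and 3 of 234. The level of the set-defining form as covariate, chosen after seeing the data, gave 5 and 2. Leaving out single larvae gave 0 to 7 higher and 0 to 4 lower, and, also chosen after seeing the data, 0 to 17 forms for the interaction, against 8, and 0 in all 24 fits of the step difference. Where no reason follows from fewer forms or larvae, the cause was not tested. Within sets, forms detected differed by -22 (low) and -28 (high) without passing. Shannon diversity differed by -0.0693 bits and the top form's share by 0.979 points in the low set, both opposite in sign to all 16 larvae.

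Of the 10 most abundant forms, none of which passed with all 16 larvae, ranks 3 (0.59) and 7 (-0.93) passed in the high set alone, and some changed sign. With set and reads, the log2 difference was 0.090 in rank 4, -0.037 in rank 6, 0.010 in rank 7 and -0.21 in rank 10. It was -0.0030 in rank 6 by limma-voom, and 0.019 in rank 4 and 0.012 in rank 9 with the stricter filter. In the low set alone it was 0.17 in ranks 1 and 4, 0.27 in rank 7 and -0.24 in rank 10, and in the high set 0.088 in rank 9. With the set-defining form as covariate it was -0.025 in rank 6 and -0.067 in rank 10. With single larvae left out, the ranges were -0.22 to 0.0021 in rank 1, -0.16 to 0.060 in rank 4, -0.027 to 0.032 in rank 6, -0.44 to 0.030 in rank 7 and -0.10 to 0.16 in rank 10.

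No paired analysis was possible because each larva has a number of its own. Depth limits the scarce forms most, since 3 reads in the shallowest library equal 3.40 RPM. This floor covers counting error only, while the intervals come from the fitted SE and include the spread between larvae.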

Other observations

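The forms nearest to passing included neighbours on single scaffolds, picked after their values were seen and given as values only. Scaffold NW_020229325.1 had 10 tested forms, 5 higher and 5 lower, with a median log2 difference of -0.049, and 5 had an unadjusted p under 0.05, 2 of them lower, at -0.44 in rank 137 and -0.30 in rank 92. Its ranks 76, 116 and 177 had log2 differences of 0.48, 0.66 and 0.52, with adjusted p of 0.0876, 0.105 and 0.160 (edgeR). Ranks 116 and 177 were the first-listed and second-listed forms of a single hairpin. Rank 76 was the second-listed form of another, whose far more abundant first-listed form, rank 10, had a difference of 0.027. Rank 76 averaged 974 ± 233 CPM in middle-sized and 617 ± 139 CPM in smallest larvae (SD, n = 8 each). Rank 116 averaged 198 ± 26.6 CPM in middle-sized and 118 ± 43.8 CPM in smallest larvae. In all 3 the sign was the same in both library sets.

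On scaffold NW_020229841.1, 11 of 13 tested forms were lower in middle-sized larvae, with a median log2 difference of -0.34, against 193 lower (58.0%) and a median of -0.065 over all 333 forms. Another form of this scaffold stood at 1.19. None of the 13 passed. Neighbouring forms are not independent, and 2 of the 13 had identical counts. Levels of a form also varied slightly more among middle-sized than among smallest larvae, with median coefficients of variation of 29.0% and 25.1%. In the low set alone the order was the other way, at 17.6% in 3 middle-sized and 24.1% in 6 smallest larvae.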
